A study of Mus musculus with 28 samples.

Results

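Replication-dependent histone genes encode the core histones H2A, H2B, H3 and H4 and the linker histone H1 that package newly copied DNA. The 43 genes described here were listed by symbol, as 5 H1, 8 H2A, 10 H2B, 10 H3 and 10 H4 genes, and all 43 were matched to an Ensembl identifier among the 56748 in the deposited count tables. They were measured by sequencing of total RNA, after removal of ribosomal RNA, in a pair of mouse mammary epithelial lines. The HC11 line, labelled untransformed, is a common model of milk-producing differentiation, and 4T1, labelled cancer, is a metastatic mammary tumour line. HC11 contributed 10 libraries labelled DOX and 10 labelled DOX + DIP, and 4T1 contributed 8 labelled DOX, so that every group carried the DOX label. The labels expand neither abbreviation and name no construct that DOX would switch on. In HC11 work DIP commonly means dexamethasone, insulin and prolactin. No label gives a culture, a clone or a passage, so the p-values measure the spread between these libraries, which may be technical.

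Histone mRNAs of this family are made in S phase, when DNA is replicated, and most of them end in a conserved stem-loop instead of a poly(A) tail. The stem-loop binding protein, encoded by Slbp, recognises that structure and is needed for 3′ end processing, translation and the timed decay of the mRNA. When cells stop dividing, transcription of these genes normally falls and the remaining stem-loop mRNAs are degraded, but some of the genes also have a polyadenylation signal further downstream and can give polyadenylated mRNAs in differentiated cells. The genes lie in clusters, and in mouse the main cluster is on chromosome 13 and a smaller one on chromosome 3.

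A stem-loop was searched for in the GENCODE vM21 transcripts (GRCm38) of the members, and 30 of 43 annotated transcripts held one. The sequences are shown because the ending of the mRNA is the feature that sets the family apart. They are written 5′ to 3′ as the DNA sense strand, with the 16-base stem-loop in capitals and 5 bases of flank on each side.
H1f2: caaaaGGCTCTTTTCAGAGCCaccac
H2ac4: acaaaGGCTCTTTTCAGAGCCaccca
H2ac18: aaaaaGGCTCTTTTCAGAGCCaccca
H2bc8: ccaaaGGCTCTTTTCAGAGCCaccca
H2bc12: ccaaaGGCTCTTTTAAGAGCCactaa
H3c2: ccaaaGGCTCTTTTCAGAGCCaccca
H3c8: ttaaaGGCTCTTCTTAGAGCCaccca
H4c6: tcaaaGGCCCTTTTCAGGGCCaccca
H4c2: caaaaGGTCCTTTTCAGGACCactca
H4c9: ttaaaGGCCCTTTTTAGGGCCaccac
The form in H1f2, H2ac4, H2ac18, H2bc8 and H3c2 was shared by 14 members of 4 classes, and that of H2bc12 by 5 members. The 9 H4 genes with a match carried 4 forms that were found in no other class, among them the form of H4c9, which H4c14 shares. H2ac4 and H2ac18 carry the same 16 bases, as do H2bc8 and H3c2, although within each pair 1 gene was called lower and the other higher with DIP. Of the 30 transcripts with a match, 12 were annotated for more than 300 bases past the stem-loop, and of these 3 were called lower with DIP, 4 higher and 5 not called. Of the 18 that ended within 300 bases of it, 6 were called lower, 7 higher and 5 not called. The 13 members without a match included 8 whose annotated model ends at the stop codon, so a missing match says only that these letters are not in the model.

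Of the 43 members, 39 had a promoter in the RefSeq table (GRCm38.p6), which gives 250 bases before to 50 bases after the start. 6 motifs were searched on both strands, none of which contains another. The CCAAT box was in 33 of the 39 member promoters, against 37.4% of all 32851 promoters of that length, and the TATA motif TATAAA in 24, against 13.6%. The octamer ATTTGCAT was in 5 of 9 H2B and 4 of 8 H2A promoters and in no promoter of the other classes, against 1.74% of all promoters. Windows of neighbouring genes can overlap. Those of H2ac8 and H2ac12 take in the octamers beside H2bc8 and H2bc12, which start 179 and 177 bases away. These sites are thus counted for both classes. GGTCCG, a core of the H4 promoter element, was in 8 of 9 H4 promoters, against 8.25% of all, and AAACACA, known from H1 promoters, in 4 of 5 H1 promoters, against 7.18%. The E2F-type motif TTTGGCGC was in none of the 39, against 0.514% of all promoters. The CCAAT box was in 15 of 15 promoters of members called lower with DIP, in 10 of 12 called higher and in 8 of 12 not called. The 6 promoters without it were all of H4 genes, of which 3 of 9 held it. A match describes these letters and is not a bound site.

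Libraries held 134117581 to 222065843 counts. At 3 counts of the total, a gene without counts could still have had up to 0.0224 CPM (counts scaled to a total of 1e+06 per library), for counting error only. Epithelial markers (Krt5, Krt14, Krt8, Krt18, Epcam and Cdh1) summed to 3445.8 to 7996.5 CPM with DOX, 443.6 to 2211.3 with DIP and 2133.9 to 3038.5 in 4T1, and leukocyte markers (Ptprc, Cd3e, Adgre1) summed to at most 0.0606 CPM. All 27 genes of DNA replication and proliferation that were listed were called lower with DIP, and Mki67, a marker of cycling cells, ran from 88.6 to 395.5 CPM with DOX, from 3.22 to 27.9 with DIP and from 327.6 to 507.4 in 4T1. Some libraries stood apart for the histone genes. HC11 DOX library 5 was the highest of its group for 33 of 43 members, 4T1 library 8 for 34 and DIP library 2 for 22. HC11 DOX library 1 was the lowest for 27 members and DIP library 8 for 29. Library 1 of HC11 DOX was nonetheless the highest for 6 members, the H2A members of chromosome 13. Its H2A members summed to 309.25 CPM, against 187.01 in library 5 and a group median of 210.75. A further 6 RNAs without a poly(A) tail (Rmrp, Rpph1, Rny1, Rny3, Rnu12 and Scarna2, chosen after the data were seen) summed to 36.5 CPM in HC11 DOX library 5 against a group median of 9.76, and to 17.7 in 4T1 library 8 against 3.98. With DIP they ran from 3.13 CPM in library 10 to 50.2 in library 1. Their part in the histone values was not tested. Results are given without these libraries where that changes them.

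**Figure D1:**
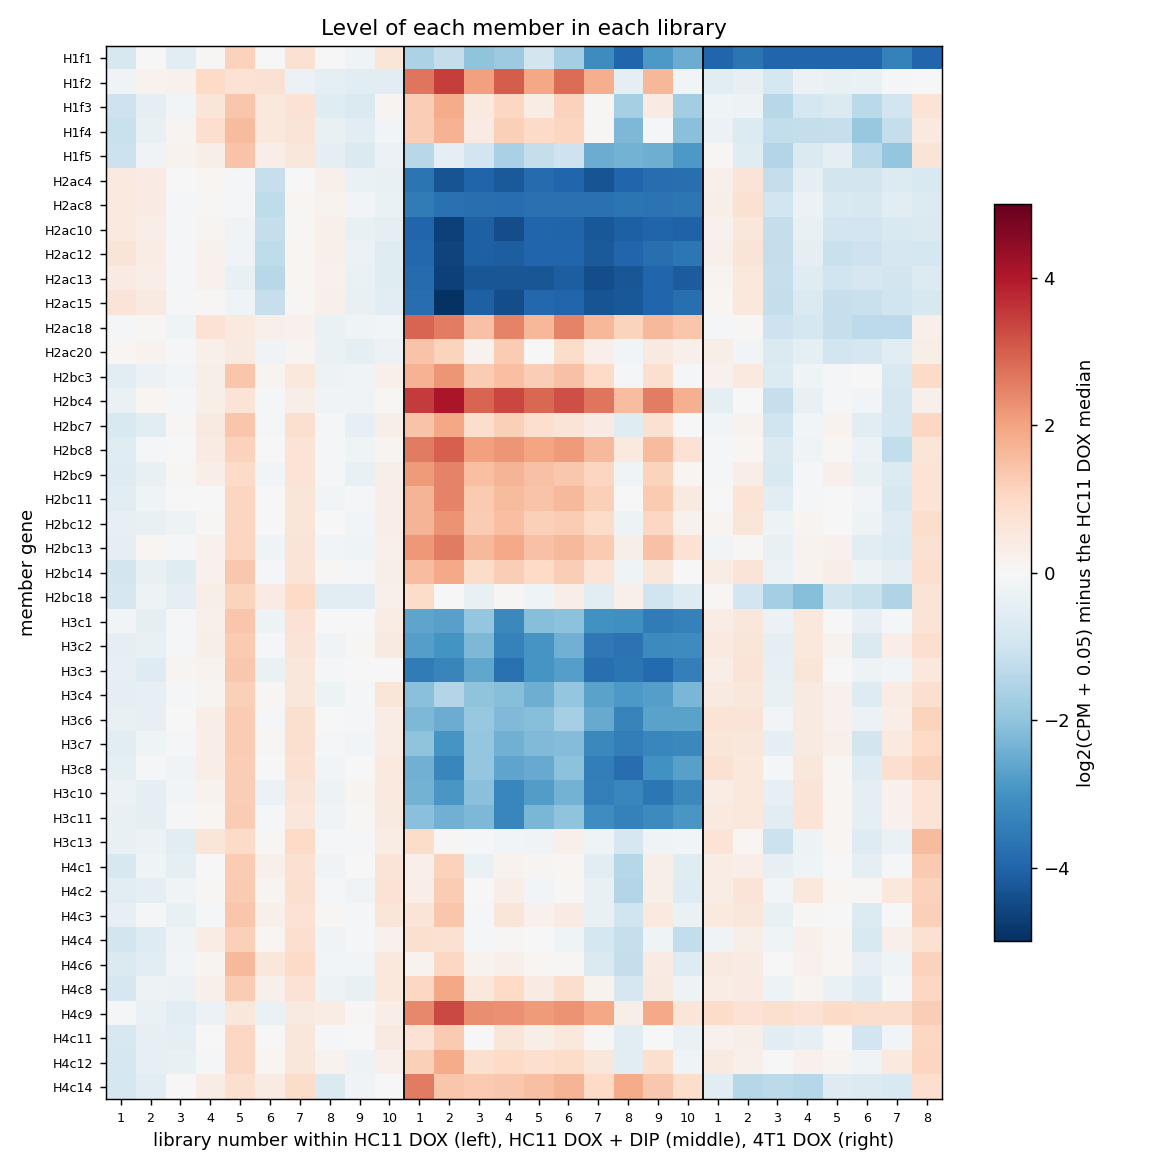
Level of each member (rows) in each library (columns), as log2(CPM + 0.05) minus the median of the HC11 DOX libraries. With DIP the H2A rows from H2ac4 to H2ac15 and the H3 rows from H3c1 to H3c11 are blue in all 10 libraries, H1f2 and the H2B rows other than H2bc18 are red in most, and H1f1 is far below the HC11 DOX median in 4T1.

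The first comparison asked which histone genes were lower and which higher in HC11 cells with DIP, where proliferation genes had fallen. Of the 43 members, 17 were called lower, 14 higher and 12 were not called. Among the core histone members of chromosome 13 the direction split by class. All 6 H2A genes of chromosome 13 and all 9 H3 genes of chromosome 13 fell, by 5.58-fold to 17.9-fold. No H2B or H4 member fell, whereas 8 of 10 H2B genes and 3 of 10 H4 genes rose. On chromosome 3 the H2A members H2ac18 and H2ac20 rose too, and the H3 member H3c13 was not called. The linker histones H1f1 and H1f5 fell and H1f2 rose. A call means an adjusted p below 0.05 in the quasi-likelihood test of edgeR, adjusted over all genes tested by Benjamini-Hochberg. Among all 23829 genes tested, 21% were called lower and 24.5% higher. The groups did not overlap below for 16 members and above for 2, against 6.76% and 4.69% of all genes. The median log2 fold change was -0.17 over the members and 0.06 over all genes.

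Every class of core histone contributes to each nucleosome, and the summed counts of the listed members of each class were set side by side. They are not totals of a class, since further genes are left out, such as the H2A gene H2ac24 with a mean of 245.55 CPM with DOX. A read that was counted at each of several copies would enter a sum more than once. The 8 H2A genes summed to 208.0 ± 63.6 CPM (SD, n = 10) with DOX and to 25.4 ± 5.62 (n = 10) with DIP, 8.20-fold less. The 10 H3 genes summed to 28.7 ± 12.4 CPM with DOX and 4.50 ± 1.39 with DIP, 6.39-fold less. For both classes the highest DIP library lay below the lowest DOX library. H2ac18 and H2ac20, which rose, made up on average 40.6% and 9.07% of the H2A counts with DIP. With DOX they made up 1.49% and 0.765%. H3c13, which was not called, made up 29.6% of the H3 counts with DIP and 5.53% with DOX. Both sums thus mix genes that fell with genes that did not. The 10 H2B genes summed to 23.05 ± 8.53 CPM with DOX and 78.8 ± 37.7 with DIP, 3.42 times as much, with overlapping ranges. The 10 H4 genes summed to 14.7 ± 6.06 and 26.4 ± 12.6 CPM, and the 5 H1 genes to 15.8 ± 6.65 and 49.2 ± 32.3 CPM. The H1 sum rested on H1f2, without which its log2 ratio was -0.01 in place of 1.63, and the H4 sum largely on H4c9, without which its log2 ratio was 0.229 in place of 0.846. No test was run on these sums, which describe the libraries. In bulk RNA, fewer cells in S phase and less histone mRNA in each cell cannot be told apart.

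**Figure D2:**
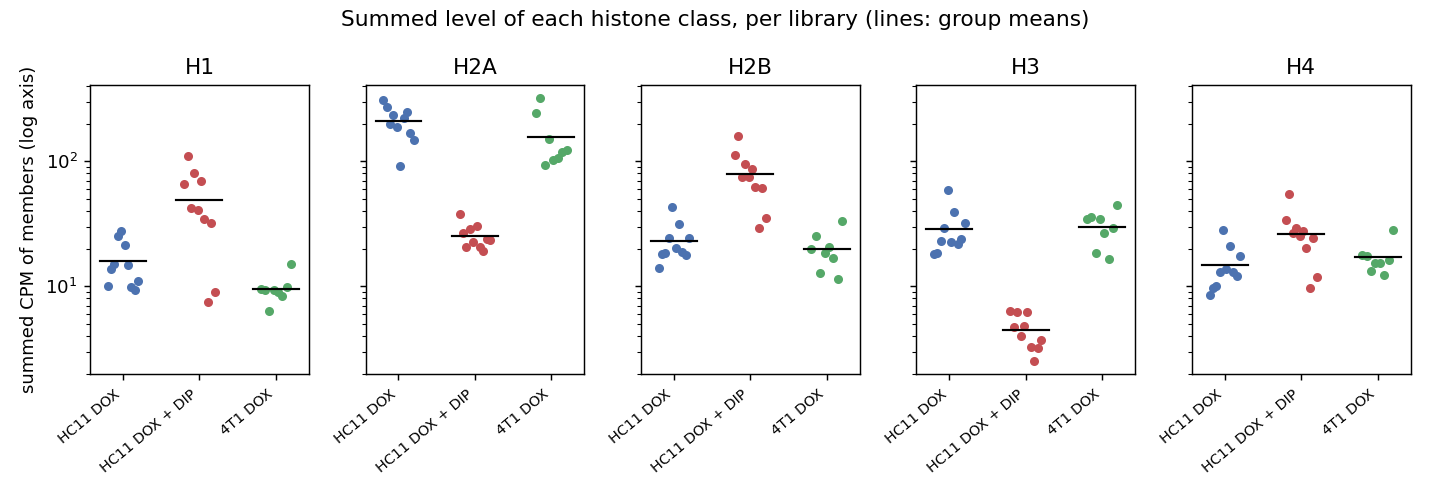
Summed CPM of the members of each histone class in every library (points, log axis), with group means as lines. With DIP the H2A and H3 sums lie below every HC11 DOX library, and the H1, H2B and H4 sums have higher means with 2 libraries, 8 and 10, near the bottom of their group.

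The H2A genes of chromosome 13 had the largest falls. H2ac13 had 10.5 CPM in its lowest HC11 DOX library, a median of 27.6 and 36.7 in the highest, and with DIP it had 1.04, 1.38 and 1.88. H2ac10 had 11.2, 25.5 and 35.4 CPM with DOX and 0.942, 1.48 and 1.59 with DIP. H2ac15 had 15.1, 33.9 and 52.5 CPM with DOX and 1.05, 2.02 and 2.42 with DIP. The groups of these genes did not overlap, and DIP libraries were low without exception. H2ac13 fell by 4.17 on the log2 scale (SE 0.20, adjusted p = 1.05e-12), H2ac10 by 4.13 (SE 0.18) and H2ac15 by 4.12 (SE 0.21). H2ac4 had 8.70, 19.3 and 27.3 CPM with DOX and 0.926, 1.19 and 1.48 with DIP, and fell by 4.00 (SE 0.18). H2ac12, which took 40.2% of the H2A counts with DOX, had 34.7, 84.9 and 131.5 CPM with DOX and 3.34, 5.39 and 6.88 with DIP, and fell by 3.98 (SE 0.20). H2ac8 fell by 3.73 (SE 0.17). These genes encode canonical H2A, which is laid down behind the replication fork.

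The pair of H2A members on chromosome 3 went the other way. H2ac18 had 2.0, 2.53 and 4.17 CPM with DOX and 5.50, 8.13 and 19.45 with DIP, without overlap. It rose by 1.98 (SE 0.23, adjusted p = 3.89e-07). H2ac20 rose by 0.72 (SE 0.21, adjusted p = 0.00797), with overlapping groups. Among H2A genes outside the 43, H2ac19 and H2ac21 of chromosome 3 were also called higher, at 1.87 (SE 0.23) and 1.01 (SE 0.23). On chromosome 13, 8 of 9 further H2A genes were called lower, from -3.37 for H2ac6 to -4.34 for H2ac24, and Hist1h2al was called higher at 1.99 (SE 0.28). All of the 50-base stretches of H2ac18 occur in other annotated genes, among them Gm20633, which overlaps it, H2ac19 (89.2%) and Hist1h2al (35.4%), so its count may not be its own.

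The counts of the H2A genes of chromosome 13 cannot be read as separate measurements. Between 43.2% and 94.0% of the 50-base stretches in the transcripts of the 6 members also occur in other annotated genes. H2ac24, which is not among the 43, had 108.2, 257.4 and 368.5 CPM with DOX and 6.62, 13.2 and 14.1 with DIP. The count of H2ac12 was between 0.313 and 0.514 times that of H2ac24 in every library of the 3 groups, and that of H2ac15 between 0.120 and 0.174 times. The ratio for H2ac13 spanned 1.61-fold and that for H2ac8 3.09-fold over the 28 libraries. The ratio for H2ac18 spanned 364.7-fold, since H2ac18 rose where H2ac24 fell. Whether reads that match several copies were dropped, split or counted at each copy is not stated in the labels or notes.

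**Figure D3:**
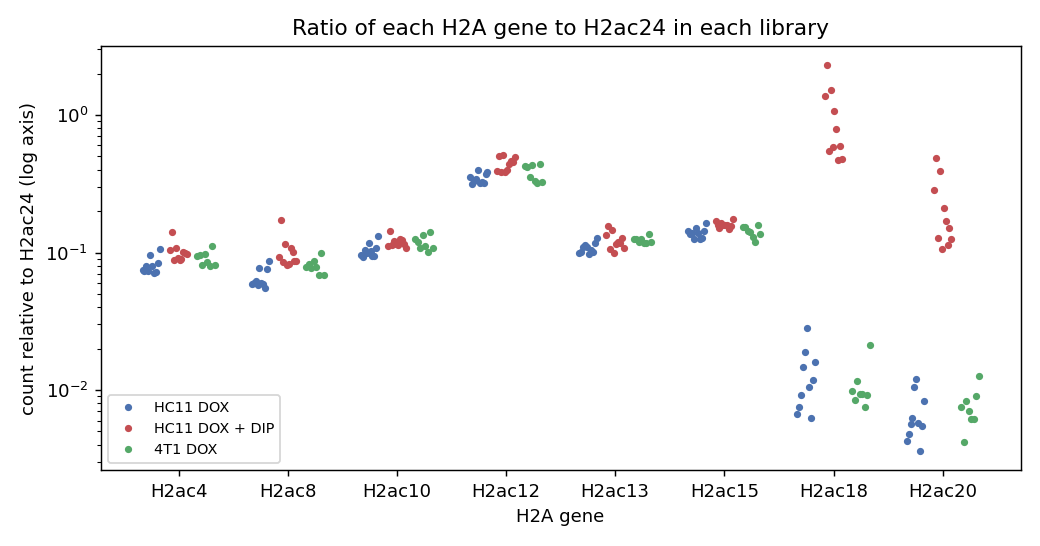
CPM of each H2A member divided by that of H2ac24 in each library (points, log axis), by group. The ratios of the 6 members of chromosome 13 stay within 1.45-fold to 3.09-fold over all 28 libraries, and those of H2ac18 and H2ac20 on chromosome 3 are higher in the DIP libraries than in all others.

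The H3 genes fell almost as far. H3c2, the H3 member with most counts, had 2.88 CPM in its lowest DOX library, a median of 3.96 and 9.90 in the highest, and with DIP 0.263, 0.424 and 0.792. It fell by 3.33 (SE 0.26, adjusted p = 8.29e-10). H3c3 fell by 3.67 (SE 0.27), and the other 7 H3 genes of chromosome 13 by between 2.48 for H3c4 and 3.29 for H3c10. For each of the 9, every DIP library lay below every DOX library. H3c13 on chromosome 3 had 0.870, 1.30 and 2.67 CPM with DOX and 0.7103, 1.17 and 2.47 with DIP, and its difference of -0.25 (SE 0.23, adjusted p = 0.41) did not pass. H3c14 and H3c15, the other H3 genes of that cluster, were called higher at 1.09 (SE 0.22) and 0.69 (SE 0.24). All of the 50-base stretches of H3c13 occur in other annotated genes, and 79.7% of them in H3c14 and in H3c15. Among the chromosome 13 members the shared part ran from 24.8% for H3c4 to 93.9% for H3c10.

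The H2B genes rose, with H2bc4 far ahead. H2bc4 had 3.49, 4.45 and 7.17 CPM with DOX and 13.2, 33.3 and 75.6 with DIP, without overlap, and rose by 2.97 (SE 0.26, adjusted p = 6.92e-09). Its part of all H2B counts was 21.3% with DOX and 45.7% with DIP. H2bc8 rose by 1.83 (SE 0.28), H2bc13 by 1.51 (SE 0.26), H2bc9 by 1.36 (SE 0.29), H2bc11 by 1.30 (SE 0.26), H2bc12 by 1.13 (SE 0.26), H2bc3 by 1.08 (SE 0.29) and H2bc14 by 0.87 (SE 0.29). H2bc7 did not pass at 0.69 (SE 0.31, adjusted p = 0.0709), nor did H2bc18 of chromosome 3 at -0.20 (SE 0.28). The 6 further H2B genes tested, H2bc1, H2bc6, H2bc15, H2bc21, H2bc22 and H2bc23, were all called higher, from 0.73 to 1.73. Between 18.8% (H2bc9) and 100% (H2bc18) of the stretches of an H2B member occur in other genes, and for H2bc4 it was 30.6%.

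Most H4 genes showed no called change. H4c9 had 1.94, 2.80 and 4.16 CPM with DOX and 3.49, 12.9 and 27.7 with DIP, and rose by 2.13 (SE 0.29, adjusted p = 3.04e-06). Its part of the H4 counts was 21.3% with DOX and 46.4% with DIP. H4c14 of chromosome 3 rose by 1.56 (SE 0.27) and H4c12 by 0.78 (SE 0.27, adjusted p = 0.0228). The other 7 H4 members had values from -0.28 (H4c6) to 0.53 (H4c8), each with an SE near 0.3 and adjusted p from 0.174 to 0.894. H4c17 and H4c18 were not called either, while H4f16 on chromosome 6 was called lower at -1.95 (SE 0.25). H4c12 lost its call without DIP library 2, at 0.60 (adjusted p = 0.0582). Without HC11 DOX library 5 or DIP libraries 8 and 10, H4c1 and H4c2 changed sign, to between 0.00 and 0.05. Between 1.0% (H4c14) and 75.9% (H4c2) of the 50-base stretches of an H4 member occur in other genes, and for H4c12 it was 71.5%.

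The linker histones split among themselves. H1f2, which encodes H1.2, had 6.16, 9.02 and 18.1 CPM with DOX and 6.60, 36.0 and 98.0 with DIP, and rose by 2.11 (SE 0.39, adjusted p = 1.53e-04). It made up 65.4% of the H1 counts with DOX and 88.7% with DIP. H1f1 and H1f5, which share no 50-base stretch with another gene, fell by 2.41 (SE 0.47) and 1.86 (SE 0.39). H1f1 had 0.409, 0.739 and 1.69 CPM with DOX and 0, 0.160 and 0.370 with DIP, without overlap. H1f3 at 0.49 (SE 0.41) and H1f4 at 0.37 (SE 0.43) did not pass. Members with little shared sequence did not all move one way. H1f1 and H1f5 fell, whereas H4c14, with 1.0% of its stretches shared, H1f2 with 8.5% and H2bc9 with 18.8% rose, and H1f3 with 2.3% and H4c4 with 10.2% were not called.

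For most members that rose, the rise was smaller in DIP libraries 8 and 10, and for some it was absent there. H4c14 was an exception in library 8, where its 1.57 CPM was the next highest of the group after library 1. H1f2 was at 6.60 CPM in library 8 and 8.04 in library 10, within the DOX range, and at 28.1 CPM or more in the other 8. H4c9 was at 3.49 and 4.33 CPM in these libraries and at 10.7 or more in the others. H2bc4 was at 13.2 and 15.2 CPM, the lowest of its group but above every DOX library, and H2ac18 in library 8, at 5.50 CPM, was also above every DOX library. The falls were shared: H2ac12 was at 5.39 and 6.88 CPM and H3c2 at 0.263 and 0.399 CPM. Without both libraries 17 members were called lower and 16 higher, with H2bc7 (0.88) and H4c8 (0.72) added, and H1f2 was at 2.38. Of all 24427 genes tested in that fit, 6204 were called lower and 6599 higher. Leaving out the libraries with small rises raises these values by itself, so the added calls are no further support. Of the fibroblast markers Pdgfra, Pdgfrb, Dcn and Lum, 3 of 4 were called higher with DIP, and their sum ran from 14.2 to 42.2 CPM with DOX, from 19.52 to 247.4 with DIP, lowest in library 10 and highest in library 2, and from 8.06 to 12.8 in 4T1, with none at 0 in any group. The part of these genes in the rises was not tested. Without HC11 DOX library 5, 17 members were called lower and 15 higher, and of all 24062 genes tested 5085 lower and 5810 higher.

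**Figure D4:**
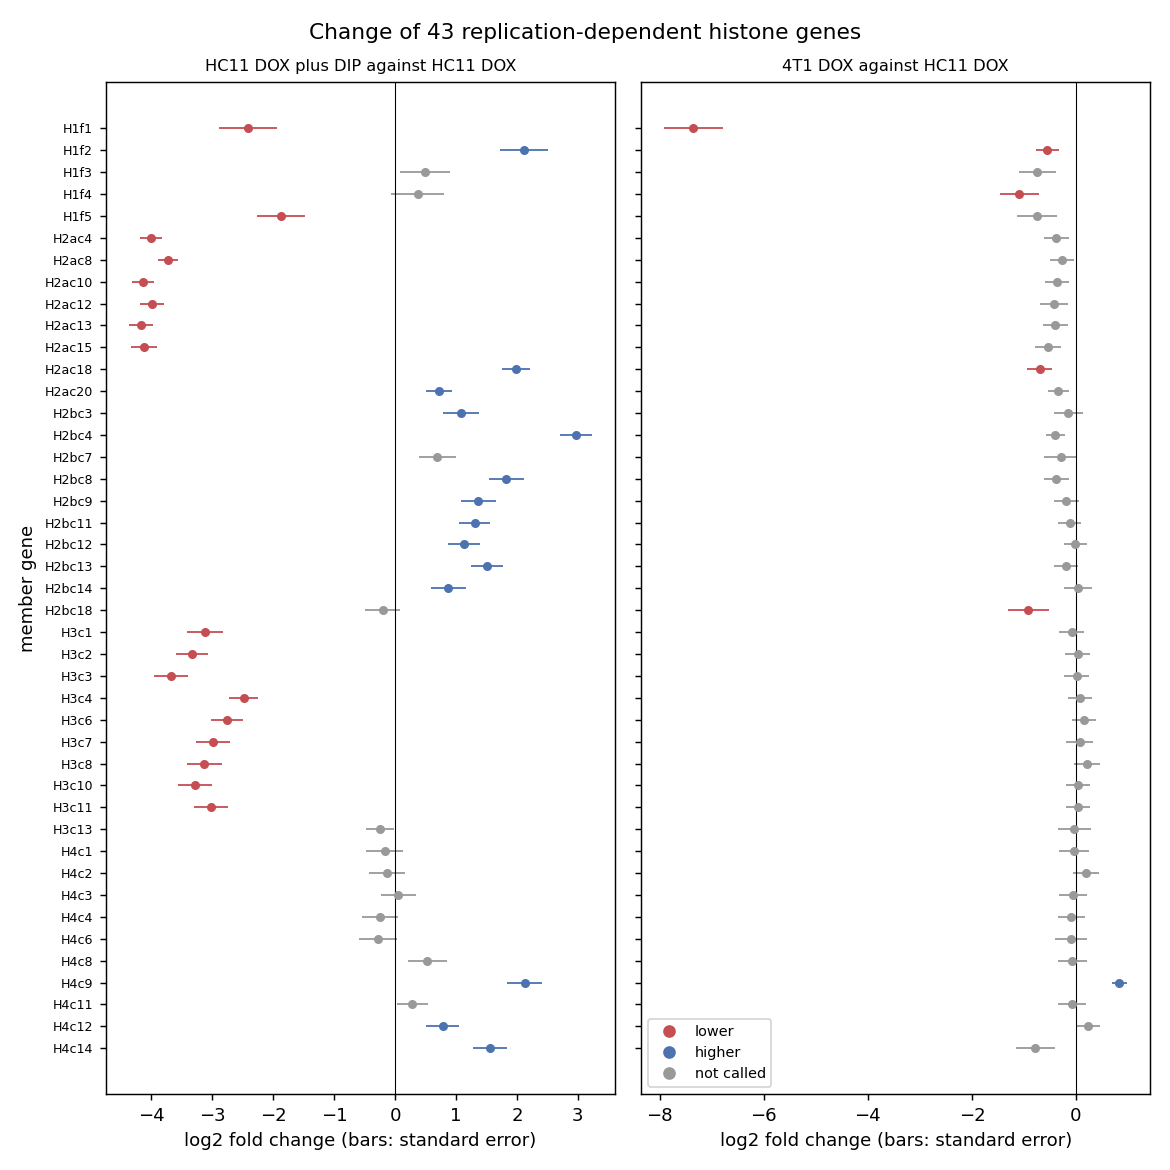
Log2 fold change of each member (points, with standard errors) for HC11 DOX plus DIP against HC11 DOX and for 4T1 DOX against HC11 DOX, coloured by call. With DIP the H2A and H3 genes of chromosome 13 sit between -4.17 and -2.48 and H2bc4 at 2.97, whereas in 4T1 37 of 43 members are grey. The horizontal scales differ between the panels. The H1f1 point of the 4T1 panel rests on 6 counts in 4T1 and is not read as a fold.

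H2A and H2B genes differed in direction within single loci. Many of them stand head to head, with their starts close together on opposite strands. A search of the RefSeq starts, made after the calls were known, found 9 such H2A and H2B pairs within 1000 bases among the members and the other listed histone genes. The H2A gene was called lower in 9 of 9 pairs and the H2B gene higher in 8 of 9, H2bc7 being the exception. In 3 pairs both genes are members. H2ac8 fell by 3.73 (SE 0.17) while H2bc8, 179 bases away, rose by 1.83 (SE 0.28). H2ac12 fell by 3.98 and H2bc12, 177 bases away, rose by 1.13. H2ac13 fell by 4.17 and H2bc13, 228 bases away, rose by 1.51. The whole stretch between the starts is shown for these pairs, since each lies upstream of both genes. Whether it serves both was not tested. The letters follow the plus strand of GRCm38.p6, with matches to the 6 motifs in capitals.
H2ac8 (minus) to H2bc8 (plus), chr13:23571221-23571399: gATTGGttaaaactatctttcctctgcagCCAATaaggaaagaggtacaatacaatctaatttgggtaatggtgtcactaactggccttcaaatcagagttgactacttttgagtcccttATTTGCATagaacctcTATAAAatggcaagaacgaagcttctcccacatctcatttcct
H2ac12 (minus) to H2bc12 (plus), chr13:22035644-22035820: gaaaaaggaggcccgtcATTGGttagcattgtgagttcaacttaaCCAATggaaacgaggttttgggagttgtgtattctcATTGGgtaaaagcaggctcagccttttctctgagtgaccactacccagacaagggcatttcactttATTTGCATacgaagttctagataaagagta
H2bc13 (minus) to H2ac13 (plus), chr13:21716184-21716411: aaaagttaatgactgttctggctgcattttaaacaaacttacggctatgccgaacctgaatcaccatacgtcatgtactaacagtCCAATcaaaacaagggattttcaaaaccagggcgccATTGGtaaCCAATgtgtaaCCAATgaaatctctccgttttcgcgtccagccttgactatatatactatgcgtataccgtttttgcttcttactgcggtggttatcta
The octamer lies on the H2B side in the first pair and in the second, and is absent from the third. Each stretch holds CCAAT boxes, on either strand. The H2A members of these pairs share sequence as described above, so the 9 falls are not 9 separate observations.

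**Figure D5:**
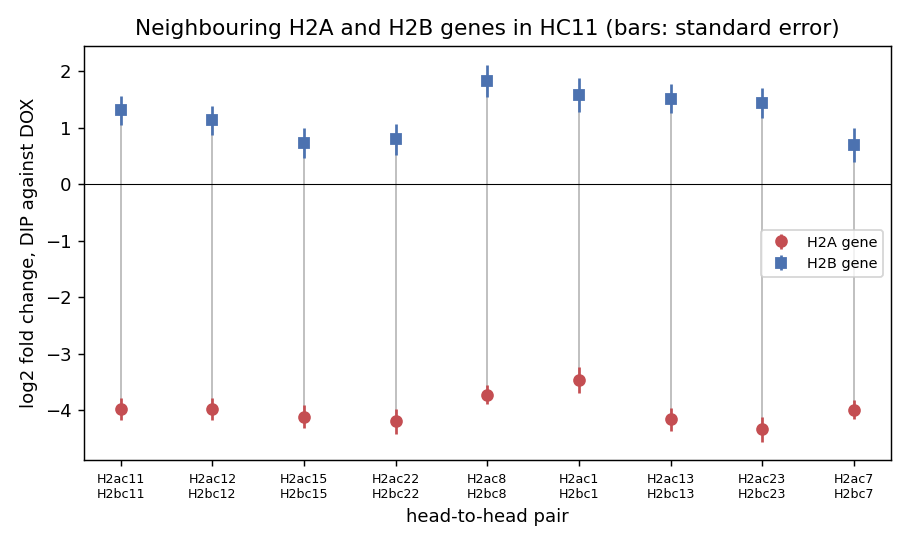
Log2 fold change with DIP (standard errors as bars) of the H2A gene (circles) and the H2B gene (squares) of each of 9 head-to-head pairs. All 9 circles lie between -4.34 and -3.47 and all 9 squares above 0.

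The genes that make and use histone mRNA were examined as a list of 30 for transcription and processing and one of 27 chaperones. Of the 30, 15 were called lower with DIP and 1 higher, with a median of -0.40. Slbp had 63.3, 88.8 and 119.6 CPM with DOX and 20.9, 27.8 and 30.3 with DIP, without overlap, and fell by 1.73 (SE 0.12). Eri1, the exonuclease that trims the histone mRNA end, fell by 1.31 (SE 0.16). Npat, the coactivator of histone transcription, had a value of -0.10 (SE 0.20, adjusted p = 0.732) and Casp8ap2, which acts in the same nuclear bodies, -0.73 (SE 0.33, adjusted p = 0.0763). The largest falls were those of Ccna2 (-4.05), Ccne1 (-3.89) and E2f2 (-2.73), regulators of S phase entry. Of the 27 chaperone and deposition genes, 17 were called lower and 1, Ubn1, higher, with a median of -0.83. Asf1b (-3.88), Chaf1b (-3.59) and Mms22l (-2.99) fell most, and the first 2 hand new H3 and H4 to replicating DNA. Among the S phase genes Mki67 (-4.73), Rrm2 (-4.53) and Pole (-4.06) fell most.

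A list of 13 further histone genes, mostly variants and named replication-independent here, was split too. The name is loose, since H2ax can also give a stem-loop mRNA, H2aw and H2bu2 (formerly Hist3h2a and Hist3h2ba) belong to another histone cluster, and Cenpa is made late in the cell cycle. Of these, 6 were called lower: Cenpa, the centromeric H3, by 4.47 (SE 0.33), H2az1 by 2.46, H1f10 by 2.19, H2ax by 1.70, Macroh2a2 by 1.07 and H2az2 by 1.05. H2aw rose by 2.59 (SE 0.20) and H2aj by 0.48 (SE 0.12). H2aw had 13.9 CPM or more in every DIP library, with 32.2 and 35.9 in libraries 8 and 10, the highest of the group. The H3.3 genes H3f3a (0.01, SE 0.08) and H3f3b (0.43, SE 0.21), the linker histone H1f0 (0.00, SE 0.13), Macroh2a1 (0.01, SE 0.11) and H2bu2 (0.52, SE 0.42) were not called. H3f3b had 1005.4, 1134.4 and 1202.4 CPM with DOX and 910.5, 1052.5 and 3025.7 with DIP.

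The second comparison asked how the same genes stand in the cancer line 4T1 against HC11, both with DOX. It shares the HC11 DOX libraries with the first, so the values are given side by side and not related to each other. Of the 43 members 5 were called lower, 1 higher and 37 not called. Of all 23875 genes tested, 35.6% were called lower and 34.3% higher. With DESeq2, 9 members and 8820 of the 23875 genes were called lower. When scaled by library totals, 16 members and 10661 of the 23875 genes were called lower. The groups did not overlap below for 1 member, H1f1, and above for 1, H4c9, against 17.8% and 18.9% of all genes. The median log2 fold change was -0.12 over the members and -0.01 over all genes. The H3 genes summed to 30.04 ± 9.496 CPM (SD, n = 8), the H2A genes to 157.3 ± 81.2, the H2B genes to 19.8 ± 6.97, the H4 genes to 17 ± 4.87 and the H1 genes to 9.58 ± 2.49. The H3 and H4 sums were above those of HC11 DOX by log2 ratios of 0.06 and 0.21 and below them, at -0.157 and -0.003, when scaled by library totals alone, a scaling that moved the median of all genes from -0.01 to -0.24. Under it the values of 10 uncalled members, among them 8 H3 genes, also turned from above to below 0.

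H1f1 was nearly absent from 4T1. It had 0 counts in 6 of 8 libraries and 6 counts in all, with at most 0.0255 CPM in a library, against 0.409, 0.739 and 1.69 CPM in HC11 DOX. It passed the filter through the HC11 libraries alone, so its call, 1 of the 5 lower calls, adds nothing to these counts, and no fitted fold is given. H1f1 is given in full although it lies under the limit of 1 CPM used for such values. H1f4 had 0.856, 1.90 and 5.76 CPM in HC11 and 0.469, 0.815 and 2.66 in 4T1, and was called lower at -1.08 (SE 0.37, adjusted p = 0.0124). H2ac18 was lower at -0.69 (SE 0.24), with 0.985, 1.28 and 2.99 CPM in 4T1.

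The remaining calls were close to the threshold. H2bc18 had 0.607, 1.14 and 2.49 CPM in HC11 and 0.214, 0.524 and 1.77 in 4T1 (log2 difference -0.91, SE 0.39, adjusted p = 0.0423). H1f2 had 4.86, 7.003 and 9.21 CPM in 4T1 (-0.55, SE 0.22, adjusted p = 0.0319). Leaving out single libraries ended the call of H1f2 in 6 of 18 cases and that of H2bc18 in 11 of 18. The count of members called lower was 8 without HC11 DOX library 1, 3 without library 4 and 8 without library 8. It was 8 without 4T1 library 2, 3 without library 3, 3 without library 5 and 10 without library 8. Without 4T1 libraries 1 and 2 it was 11, and 8343 of all 24519 genes tested were called lower. These libraries had the highest H2A levels of the group (H2ac12 at 101.5 and 133.1 CPM against 36.6 to 62.3 in the others). The H2A members of chromosome 13 were then all called lower, from -0.63 to -0.96. Leaving out the libraries with most H2A lowers the H2A values of 4T1 by itself, so these added calls are no support for a difference. Of the 6 other RNAs without a poly(A) tail, 3 (Rmrp, Rny3 and Rnu12) were called lower in 4T1, and with DIP none of the 6 was called (edgeR, adjusted p from 0.0969 for Rpph1 to 0.492 for Rny1).

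H4c9 was the member called higher in 4T1. It had 4.64, 5.19 and 6.63 CPM there and at most 4.16 in HC11 DOX, so that the groups did not overlap, and it was called at 0.84 (SE 0.15, adjusted p = 5.68e-05). The 9 H3 members of chromosome 13, which fell with DIP, had values from -0.08 (H3c1) to 0.21 (H3c8) in 4T1 with SEs of 0.23 to 0.26, and none passed.

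In the lists around the family, the balance of higher and lower calls differed from list to list. Among all genes 35.6% were called lower and 34.3% higher. Of the 27 S phase genes 17 were called higher and 1 lower, with Chek1 (1.34), Lig1 (1.24) and Cdc6 (1.11) the largest changes. Of the 27 chaperone genes 15 were called higher and 4 lower, with Ubn1 (-1.36), Npm1 (1.11) and Ubn2 (-0.94) the largest. Of the 30 processing genes 10 were called lower and 10 higher, led by E2f2 (-2.17), Ccne1 (-1.42) and Upf1 (-1.18). Slbp had 92.1, 97.4 and 103.9 CPM and was not called (0.15, SE 0.10, adjusted p = 0.209), nor was Eri1 (0.18) or Casp8ap2 (-0.56), while Npat was lower at -0.57 (SE 0.18). Among the 13 further histone genes Macroh2a2 (-5.03, SE 0.21), H3f3b (-0.64) and H3f3a (-0.57) were lower. H2ax (1.47, SE 0.10), Macroh2a1 (0.65), H1f0 (0.52), Cenpa (0.44) and H2az1 (0.41) were higher. H1f10 and H2bu2 were also called lower, but had only 60 and 35 counts in all 4T1 libraries together. They reached at most 0.202 and 0.0461 CPM there, against at least 1.97 and 0.295 in HC11 DOX. Both passed the filter through the HC11 libraries alone, so no fitted fold is given. H2az2 (-0.26), H2aj (-0.03) and H2aw (0.25) were not called. Of 20 other replication-dependent histone genes tested, 4 were called lower (H2ac19, H2ac22, H2ac23 and H2ac24, from -0.58 to -0.63) and none higher, where with DIP 8 had been called lower and 10 higher.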

How the data were processed

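RNA was sequenced from 28 libraries of HC11 and 4T1 cells. The deposited values were whole read counts per gene. Per the submitters' processing notes, fastp 0.23.2, featureCounts 2.0.1 and build GRCm39 were used. The aligner, the strand setting and the treatment of reads with several matches are unstated there. Without a strand setting, overlapping and antisense genes cannot be told apart.

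Members were matched to Ensembl identifiers by RefSeq symbol and Entrez identifier through GENCODE vM21. Each comparison was fitted in edgeR 4.0.16 (R 4.3.3) with filterByExpr, TMM factors, robust glmQLFit, glmQLFTest and Benjamini-Hochberg adjustment over all genes, with calls at adjusted p under 0.05. All 43 members passed the filter in both. The SE is the log2 fold change divided by the square root of F. CPM used TMM factors over all libraries. Alternatives used DESeq2 1.42.0, limma 3.58.1 (voom), other scalings, no filter, 1 joint fit and left-out libraries. The fit was tested on simulated data. Library numbers are names in accession order. The members and lists were chosen with earlier results of these data known, and 2 alternatives, 2 lists and the search for gene pairs were added after seeing the data. Values by library were given for the 4 called members with the largest fall and the 4 with the largest rise at a mean of at least 1 CPM, and for the member of each class with most counts. Of other genes, all listed histones, 5 fixed genes and the 3 largest called changes of each list were named. Shared sequence was counted as 50-base stretches of a member found in vM21 transcripts of other genes.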

Additional observations from a re-analysis of the deposited data

Results flagged for a closer look

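In 28 of 129 sets of libraries (43 members in 3 groups), the highest library lay further from its nearest neighbour than Dixon's 95% limit allows. The limit flags about 1 in 20 such sets by chance where values are normally distributed, which CPM need not be. Sets of different members also share libraries and reads. All 28 concern 4 libraries.

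In 4T1 library 8 these were H1f3 at 2.13 CPM, H2bc7 at 2.01, H3c13 at 3.96, H4c1 at 2.83, H4c12 at 3.45, H4c14 at 0.756, H4c6 at 2.15 and H4c9 at 6.63 CPM. H4c14 stood furthest apart, its next highest 4T1 library having 0.253 CPM.

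In HC11 DOX library 5 they were H1f4 at 5.76 CPM, H1f5 at 1.90, H2bc14 at 3.43, H2bc3 at 3.36, H3c1 at 5.82, H3c10 at 4.89, H3c11 at 4.51, H3c2 at 9.90, H3c3 at 8.26, H3c4 at 7.42 and H4c3 at 2.63 CPM. The next highest DOX library had 6.13 CPM of H3c2.

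In DIP library 2 they were H2bc11 at 16.1 CPM, H4c1 at 2.60, H4c2 at 3.22, H4c3 at 2.67, H4c8 at 4.57 and H4c9 at 27.7 CPM. In DIP library 1 they were H2bc18 at 2.18 CPM, H3c13 at 2.47 and H4c14 at 2.71 CPM.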

How the results depend on the processing

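With DIP, 17 members were called lower under every alternative run, and 13 to 16 higher. Over all genes tested, these alternatives called 4708 to 6204 lower and 5254 to 6624 higher. No sign change in either comparison involved a value that was called in either setting. With DIP, H4c1 moved to 0.002 and H4c2 to 0.051 without DIP libraries 8 and 10, and to 0.002 and 0.041 without HC11 DOX library 5. The H1 sum moved to -0.014 without H1f2. When each library was left out, H4c1 ran from -0.386 to 0.002, H4c2 from -0.361 to 0.041 and H4c3 from -0.147 to 0.241.

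In 4T1, 1 member was called higher under every alternative, but the count called lower was 9 with DESeq2, 16 with library totals, 11 without 4T1 libraries 1 and 2, 9 without HC11 DOX library 5 and 4T1 library 8, and 3 to 10 when each library was left out. Of all genes tested, 8820, 10661, 8343 and 8953 were called lower in the named settings, in that order, against 8510 in the main fit. Of all called genes, 49.0% were higher, and 35.9% with library totals. Library totals gave H2bc14 -0.168, H3c2 -0.177, H3c3 -0.195, H3c4 -0.137, H3c6 -0.055, H3c7 -0.138, H3c8 -0.004, H3c10 -0.178, H3c11 -0.169 and H4c2 -0.02, with the H3 sum at -0.157 and the H4 sum at -0.003. Upper-quartile factors gave H2bc14 0, H3c2 -0.007, H3c3 -0.024 and H3c10 -0.006. Without 4T1 libraries 1 and 2, H2bc14 was at -0.037, H3c2 at -0.02, H3c3 at -0.052, H3c10 at -0.002 and H3c11 at -0.004. H4c6 was at 0.007 with limma voom, H2bc12 at 0.029 and H3c13 at 0.007 without a filter, and H3c1 at 0.029 without HC11 DOX library 5 and 4T1 library 8. H1f2 lost its call with limma voom (adjusted p = 0.0754), in the joint fit (0.185) and without 4T1 libraries 1 and 2 (0.0981), and H2bc18 without a filter (0.0585). The cause of these changes was not tested.

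When each library was left out in 4T1, H2bc3 ran from -0.34 to 0.047, H2bc12 from -0.169 to 0.108, H2bc14 from -0.083 to 0.235, H3c1 from -0.161 to 0.096, H3c2 from -0.07 to 0.192, H3c3 from -0.057 to 0.205, H3c4 from -0.023 to 0.214, H3c7 from -0.06 to 0.219, H3c10 from -0.049 to 0.182, H3c11 from -0.036 to 0.205, H3c13 from -0.409 to 0.083, H4c1 from -0.31 to 0.112, H4c3 from -0.28 to 0.109, H4c4 from -0.217 to 0.054, H4c6 from -0.298 to 0.118, H4c8 from -0.259 to 0.093 and H4c11 from -0.314 to 0.048. No paired analysis was possible because the labels give no replicate numbers shared between groups. Shared sequence limits what the counts of single H2A, H2B, H3 and H4 genes can show.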
